A study of Mus musculus with 8 samples.

Results

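The 10 genes described here are the 3 orphan nuclear receptors Nr4a1, Nr4a2 and Nr4a3 and the 7 Kruppel-like factors Klf2, Klf3, Klf4, Klf6, Klf7, Klf10 and Klf13. They were chosen by name, as the gene probes whose RefSeq identifier maps to one of these genes, with the probe of the highest mean intensity standing for a gene. This choice, like that of the gene lists below, was made with earlier results of these data known. Counts of these genes set beside the shares of all genes are therefore descriptions. All 10 of 10 were measured and passed the intensity filter, among 36947 genes and transcripts tested in all. Together they have 11 probes on the array, of which 2 belong to Nr4a2. Nr4a receptors bind DNA without a known activating ligand and belong to the immediate early genes, which cells transcribe within minutes of a stimulus from signalling pathways already in place. Kruppel-like factors bind GC-rich and CACCC-containing DNA through zinc fingers at the end of the protein, and in macrophages Klf2 and Klf4 are known for holding back or directing inflammatory activation, while Klf6 is known as a partner of inflammatory transcription.

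Peritoneal macrophages were taken from C57BL/6 mice of the LysMCre-fur(fl/fl) line (KO) and from wild type littermates (WT), and were either left unstimulated or given LPS at 1 μg/ml for 1, 4 or 24 h. LPS is the bacterial product that Toll-like receptor 4 senses. In the KO, Cre is driven from the Lyz2 (LysM) locus, which is active in macrophages and neutrophils, so that lymphocytes and other cells of the preparation are not expected to lose the floxed fur gene. The cells were washed out of the unchallenged peritoneal cavity and kept as those that attached in culture, and the age of the mice is not given for this experiment. RNA of both genotypes at a time point was hybridised together on Agilent 2-colour arrays, 2 arrays per time point and 8 in all, with KO in Cy5 on the arrays of replicate 1 and in Cy3 on those of replicate 2. Each genotype at each time point thus has n = 2, described as biological replicates with no word on whether animals were pooled, and dye orientation cannot be told apart from replicate number. The titles give the hours of LPS used below, whereas the culture protocol mentions 4 h throughout.

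Furin, which is deleted in the KO, was lower in the KO on the 6 arrays at 0, 1 and 24 h, with log2 KO/WT ratios from -0.85 to -0.55, but not at 4 h, where they were 0.00 and 0.33. Whether its 1 probe lies within the deleted part was not determined. Lyz2 was lower in the KO on all 8 arrays, and at 4 h its ratios were -1.04 and -1.13. Because of Furin, the KO sample at 4 h is called RNA labelled KO, and each change given for KO that starts or ends at 4 h was measured with that RNA. Macrophage markers were present: 7 of 8 listed genes were measured, all well above background in all 16 channels. So were 6 of 6 B cell markers and 6 of 7 T and NK cell markers (Ncr1 was never above background). In bulk RNA, fewer cells of a type and less RNA per cell cannot be told apart. Between 43.8% and 51.3% of the gene spots in a channel were well above background, and precision is limited by having 8 arrays.

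The DNA in front of the 3 Nr4a genes is shown first, since these genes all rose with LPS, though Nr4a3 peaked later than Nr4a1, followed by that of Klf2, which fell. Each line gives the 250 bases before the annotated RefSeq start site, in build GRCm38.p6, read 5′ to 3′ along the gene. Nr4a1 lies on the plus strand (chr15:101266596-101266845), Nr4a2 on the minus strand (chr2:57124004-57124253), Nr4a3 on the plus strand (chr4:48045055-48045304) and Klf2 on the plus strand (chr8:72318812-72319061). Capitals mark TGACG or, where it sits on the other strand, its complement CGTCA. The motif TGACG is the core of the cAMP response element, which CREB family factors bind.
Nr4a1: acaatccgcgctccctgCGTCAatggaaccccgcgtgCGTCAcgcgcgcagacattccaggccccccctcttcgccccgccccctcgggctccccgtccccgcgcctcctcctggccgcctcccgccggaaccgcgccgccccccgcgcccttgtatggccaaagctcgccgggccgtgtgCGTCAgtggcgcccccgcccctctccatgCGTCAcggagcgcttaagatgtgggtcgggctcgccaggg
Nr4a2: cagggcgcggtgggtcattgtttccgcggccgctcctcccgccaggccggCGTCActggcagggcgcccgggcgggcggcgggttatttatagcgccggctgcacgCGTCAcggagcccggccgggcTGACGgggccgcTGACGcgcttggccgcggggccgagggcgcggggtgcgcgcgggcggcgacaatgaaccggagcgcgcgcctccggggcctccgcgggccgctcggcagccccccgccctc
Nr4a3: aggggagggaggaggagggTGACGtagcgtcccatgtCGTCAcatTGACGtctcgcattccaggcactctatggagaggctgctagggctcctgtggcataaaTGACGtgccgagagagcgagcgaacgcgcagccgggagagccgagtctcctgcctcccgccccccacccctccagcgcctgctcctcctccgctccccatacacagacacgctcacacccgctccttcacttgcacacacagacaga
Klf2: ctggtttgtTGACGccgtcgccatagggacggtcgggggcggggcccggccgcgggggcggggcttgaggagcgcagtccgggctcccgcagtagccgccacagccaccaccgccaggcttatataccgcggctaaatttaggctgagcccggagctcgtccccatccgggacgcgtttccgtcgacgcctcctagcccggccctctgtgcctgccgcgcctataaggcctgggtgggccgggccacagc

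Each of the 3 Nr4a promoters held 4 matches to TGACG on either strand in the window from 250 bases before to 50 bases after the start site. Of all 32851 RefSeq promoters of this length, 20.8% held at least 1 match and 0.231% held at least 4. Klf2, Klf4 and Klf13 held 1 match before the start site and Klf3 held 1 after it, so that 7 of the 9 member promoters in the table had one, and Klf6 and Klf7 had none. In Nr4a1 the matches began 233, 213, 69 and 40 bases before the start, in Nr4a2 from 200 to 111 bases and in Nr4a3 from 231 to 147 bases before it. The full palindrome TGACGTCA, which counts as 2 overlapping TGACG matches, was in 0 of 9 member promoters and in 1.79% of all. The GC box GGGCGG, a site of Sp and Kruppel-like factors, was in 9 of 9 member promoters and in 35.7% of all. CACCC was in 6 of 9 and in 57.5% of all, and CCAAT was in Klf6, with 4 matches, and in Klf13, with 2 matches, and in 37.4% of all. TATAAA was found in Nr4a2 alone, against 13.6% of all promoters. The AP-1 motif TGANTCA (7.81% of all promoters), the Nr4a response element AAAGGTCA (1.51%) and the NF-κB motif GGGNNTTCC (5.82%) had no match in any of the 9. Both strands were searched for every motif, and a match is a description of the letters, not of binding. Klf10 has no entry in the table.

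**Figure D1:**
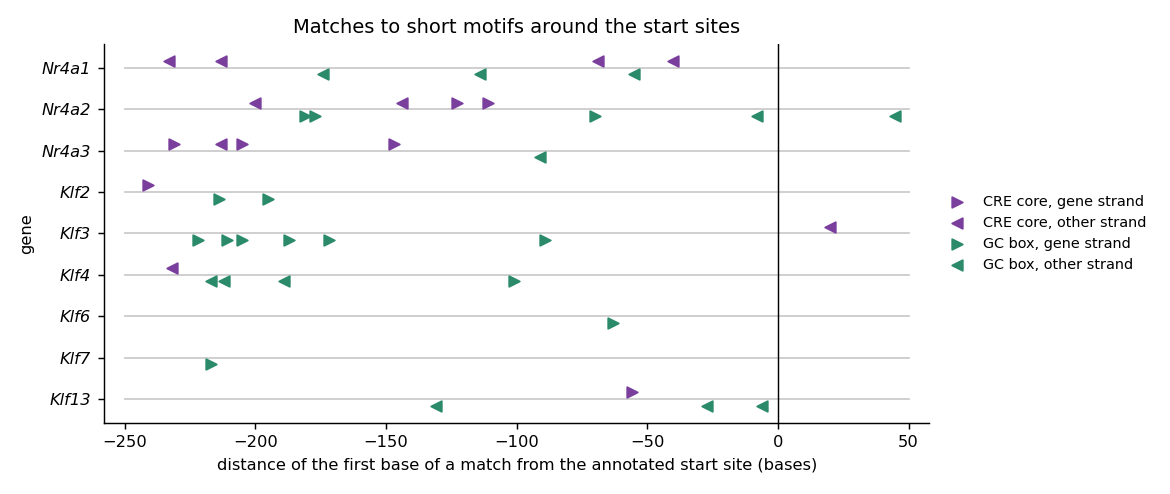
Positions of matches to the cAMP response element core (purple) and the GC box (green) around the annotated start sites of 9 of the 10 genes, with the distance from the start in bases on the x axis and 1 gene per line on the y axis. Arrowheads point along the gene or against it by strand, and each of the 3 Nr4a genes has 4 purple marks, all before the start.

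After 1 h of LPS, 6 of the 10 genes had risen and none had fallen in WT, and the same 6 had risen in KO: Nr4a1, Nr4a2, Nr4a3, Klf3, Klf6 and Klf7. Of all genes and transcripts tested, 3.35% rose and 5.15% fell in WT at 1 h, and 3.08% rose and 4.45% fell in KO. The median log2 change of the 10 genes was 0.45 in WT and 0.46 in KO, against -0.02 for all genes in each genotype. At 4 h, 5 had risen and 3 had fallen in WT, and the same genes in the same direction in the RNA labelled KO, against 15.5% of all genes rising and 19.2% falling in WT, and 16.2% rising and 19.7% falling in the RNA labelled KO. At 24 h none was above its resting level in WT by the test and 6 were below it (all genes: 13.5% rose, 16.8% fell), and in KO 1 was above and 6 were below (all genes: 12.8% rose, 15.9% fell). These tests used limma on the separate channels of all 8 arrays, and a call means a Benjamini-Hochberg adjusted p under 0.05 among all genes. These shares take in many transcripts that were not above background. Among the 23027 genes well above background in at least 2 channels the shares were larger, while the members' counts were the same. There 5.70% rose and 8.92% fell in WT after 1 h, 25.2% rose and 31.5% fell after 4 h, and 22.2% rose and 28.1% fell after 24 h. For KO the shares were 5.26% rising and 7.84% falling after 1 h, 26.3% rising and 32.0% falling in the RNA labelled KO, and 21.1% rising and 26.3% falling after 24 h. With loess normalisation alone 5 members rose and none fell at 1 h in WT and in KO, Klf3 being lost. Of all genes 2.56% rose and 4.5% fell there in WT, and 2.24% rose and 3.6% fell in KO. At 4 h that setting gave 4 risen and 3 fallen members in WT, where Nr4a2 was lost (adjusted p = 0.279), and 5 risen and 4 fallen in the RNA labelled KO, where Klf4 was added, against 8.94% of all genes rising and 23.2% falling in WT and 9.03% and 23.4% in the RNA labelled KO. It turned the balance at 24 h, where more genes rose than fell, 14.1% against 12.4% in WT and 13.5% against 11.4% in KO, and 1 member rose and 6 fell in WT, and 2 rose and 6 fell in KO. At 24 h the median log2 change of the members was -0.94 in WT and -0.84 in KO, against -0.01 for all genes in each genotype.

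**Figure D2:**
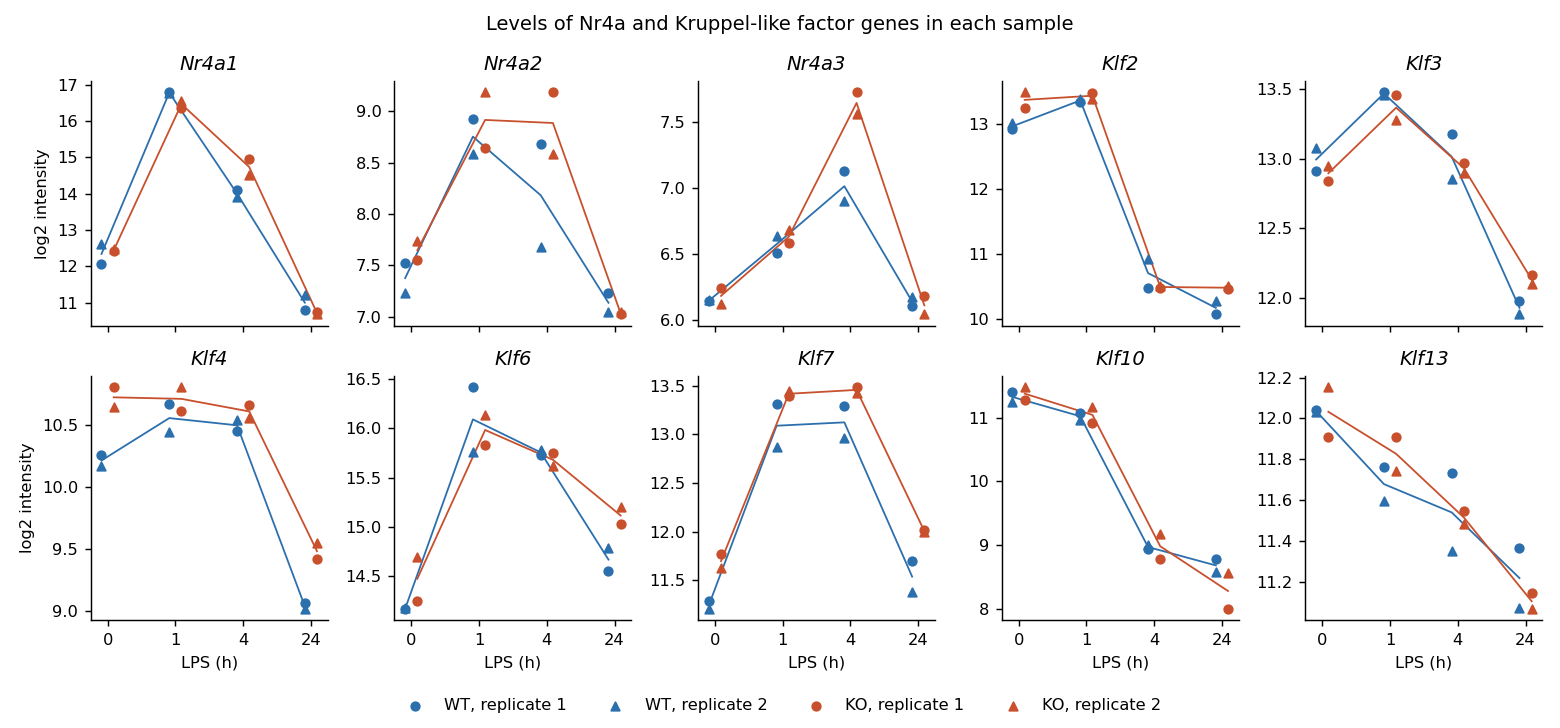
Normalised log2 intensity (y axis) of each gene at 0, 1, 4 and 24 h of LPS (x axis, evenly spaced), with WT in blue and KO in red (at 4 h the RNA labelled KO), circles for replicate 1 and triangles for replicate 2, and lines through the means of 2 samples. Nr4a1 peaks at 1 h and Nr4a3 at 4 h in WT and in the samples labelled KO, while Klf2 and Klf10 drop between 1 and 4 h. The y axes differ between panels.

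Nr4a1 (Nur77) had the largest rise of the 10 genes. Its log2 intensity was 12.08 and 12.61 in the unstimulated WT samples, 16.80 and 16.77 at 1 h, 14.10 and 13.91 after 4 h and 10.79 and 11.22 at 24 h. In KO the values were 12.41 and 12.47, then 16.37 and 16.57, 14.95 and 14.53 in the RNA labelled KO at 4 h, and 10.75 and 10.68. The 4 times did not overlap in WT or in the samples labelled KO, and the order was 1 h, 4 h, unstimulated, 24 h. At 1 h the gene was 21.7-fold above rest in WT (log2 change 4.44, standard error 0.18, adjusted p = 3.65e-09, limma) and 16.3-fold in KO (4.03, adjusted p = 1.12e-08, limma). By 24 h it was below rest, by 2.53-fold in WT (log2 change -1.34, adjusted p = 5.61e-05, limma) and by 3.31-fold in KO (log2 change -1.73, adjusted p = 5.84e-06, limma). None of its spots was saturated.

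Nr4a2 (Nurr1) followed with smaller changes and wider spread. The unstimulated values were 7.52 and 7.23 in WT and 7.55 and 7.74 in KO, and at 1 h they were 8.92 and 8.58 in WT and 8.64 and 9.18 in KO, above all resting samples. At 4 h WT gave 8.68 and 7.68 and the RNA labelled KO 9.18 and 8.58. At 24 h all 4 samples lay between 7.02 and 7.23. The rise at 1 h was 2.60-fold in WT (log2 change 1.38, standard error 0.28, adjusted p = 0.00575, limma) and 2.41-fold in KO (1.27, adjusted p = 0.0117, limma). It missed the threshold in WT without replicate 1 at 1 h (0.0546) or unstimulated replicate 2 (0.0767), and in KO without replicate 2 at 1 h (0.143) or unstimulated replicate 1 (0.118) or 2 (0.0515). At 4 h the WT change of 0.81 rested on replicate 1: without that array it was 0.31 (adjusted p = 0.384, limma), and the mean of both Nr4a2 probes gave 0.48 (adjusted p = 0.110). In the RNA labelled KO the change at 4 h was 1.24 (adjusted p = 0.00257, limma). The log2 change of -0.62 in KO at 24 h had an adjusted p of 0.127, which the replicate block lowered to 0.0426.

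Nr4a3 (Nor1), measured by a probe with 10 spots, peaked later than the other receptors. It was not well above background in either genotype at rest or at 24 h, nor in WT at 1 h, and in KO at 1 h it was above it in 1 of 2 samples. The calls at 1 h therefore rest on signals near background, with log2 changes of 0.43 in WT and 0.45 in KO, and missed the threshold without any 1 of the 4 arrays at rest and at 1 h (adjusted p = 0.0619 to 0.209). The highest values came at 4 h, at 7.13 and 6.90 in WT and 7.73 and 7.57 in the RNA labelled KO, and all 4 lay above the other 12 samples, which ran from 6.04 to 6.68. Against the lowest signal that counts as above background, the level at 4 h was at least 1.58-fold higher than at rest in WT (adjusted p = 1.40e-05, limma) and at least 2.21-fold higher in the RNA labelled KO (adjusted p = 8.81e-08, limma). For each bound, intensities scaled between arrays by Aquantile, and not by the quantile method of the values above, gave a mean of 7.06 in WT and 7.60 in the RNA labelled KO at 4 h, set against that floor or the dim probe's own signal, whichever was higher. The step from 1 to 4 h passed the test in WT (adjusted p = 0.00545, limma), though not without replicate 1 at 1 h (0.0702) or replicate 1 at 4 h (0.0697), and no fold is given since WT was not above background at 1 h. From KO at 1 h to the RNA labelled KO at 4 h it passed too (adjusted p = 4.52e-06, limma), with 1 of 2 samples above background at 1 h. From 4 to 24 h it fell again, by at least 1.53-fold in WT and at least 2.31-fold from the RNA labelled KO at 4 h to KO at 24 h.

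Klf6 and Klf7 rose with the receptors and stayed high at 4 h. Klf6, an activator first described as a core promoter binding protein, had log2 intensities of 14.16 and 14.18 in unstimulated WT, 16.42 and 15.76 at 1 h, 15.73 and 15.78 after 4 h and 14.56 and 14.78 at 24 h. In KO they were 14.25 and 14.70, then 15.83 and 16.13, 15.75 and 15.62 in the RNA labelled KO at 4 h, and 15.03 and 15.20. At 1 and 4 h all 8 samples lay above all resting samples. The rise was 3.78-fold in WT at 1 h (log2 change 1.92, standard error 0.20, adjusted p = 2.34e-05, limma) and 2.84-fold in KO (1.51, adjusted p = 0.000259, limma). At 24 h the remaining change was 0.50 in WT (adjusted p = 0.0776, or 0.0477 with the replicate block) and 0.64 in KO (adjusted p = 0.0249, limma). The latter missed the threshold without replicate 1 (0.0625) or 2 (0.162) at 24 h or unstimulated replicate 1 (0.283), and the former passed without either 1 h array (0.0199).

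Klf7, a widely expressed activator, went from 11.29 and 11.20 to 13.31 and 12.87 at 1 h in WT, and to 13.29 and 12.96 at 4 h. In KO it went from 11.77 and 11.63 to 13.39 and 13.44 at 1 h, and the RNA labelled KO at 4 h gave 13.49 and 13.43. The samples at 1 and 4 h overlapped each other and stood clear of those at rest. The fold change at 4 h was 3.67 in WT (log2 change 1.88, standard error 0.15, adjusted p = 2.26e-07, limma) and 3.38 in the RNA labelled KO (1.76, adjusted p = 4.37e-07, limma). At 24 h Klf7 was at 11.70 and 11.38 in WT and 12.014 and 11.999 in KO, and the changes of 0.29 and 0.31 passed the test only with the replicate block (adjusted p = 0.0365 and 0.0297, against 0.183 and 0.164 without it).

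Klf3, a repressor that recruits CtBP proteins, rose slightly at 1 h and was below rest at 24 h. Its WT values were 12.91 and 13.08 at rest, 13.48 and 13.46 at 1 h, 13.17 and 12.85 after 4 h and 11.98 and 11.88 at 24 h. In KO they were 12.84 and 12.95, 13.45 and 13.28, 12.97 and 12.89 in the RNA labelled KO at 4 h, and 12.16 and 12.10. The 1 h samples stood above and the 24 h samples below those of the other times, in WT and in the samples labelled KO. The change at 1 h was 0.47 in WT (adjusted p = 0.0181, limma) and 0.47 in KO (adjusted p = 0.0217, limma), and with loess normalisation alone it did not pass the test (adjusted p = 0.121 and 0.153), nor without a single array at rest or 1 h (0.0619 to 0.223), except WT without unstimulated replicate 2. At 24 h the fall was 2.09-fold in WT (log2 change -1.06, standard error 0.11, adjusted p = 5.96e-06, limma) and 1.70-fold in KO (log2 change -0.76, adjusted p = 0.000135, limma).

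Klf2 and Klf10 did not pass the test at 1 h and had fallen several-fold by 4 h. Klf2, which restrains inflammatory gene expression in myeloid cells and keeps lymphocytes quiescent, was at 12.92 and 13.02 in unstimulated WT and at 13.34 and 13.39 at 1 h, then at 10.48 and 10.93 at 4 h and 10.07 and 10.27 at 24 h. In KO it was at 13.26 and 13.50, then at 13.49 and 13.39, at 10.47 and 10.50 in the RNA labelled KO at 4 h, and at 10.45 and 10.51. All 8 samples at 4 and 24 h lay far below the 8 samples at rest and 1 h, with no value between 10.93 and 12.92. The fall at 4 h was 4.81-fold in WT (log2 change -2.26, standard error 0.13, adjusted p = 1.27e-08, limma) and 7.39-fold in the RNA labelled KO (log2 change -2.89, adjusted p = 1.30e-09, limma). At 24 h it was 6.97-fold in WT and 7.45-fold in KO. At 1 h the WT change of 0.40 did not pass (adjusted p = 0.0992), but did with the replicate block (0.0325) or without the 4 h arrays (0.0435).

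Klf10, named for its early induction by TGF-β, whose precursor FURIN cleaves, was at 11.40 and 11.25 in unstimulated WT, 11.07 and 10.97 at 1 h, 8.93 and 9.01 after 4 h and 8.79 and 8.58 at 24 h. In KO it was at 11.27 and 11.48, 10.91 and 11.17, 8.79 and 9.18 in the RNA labelled KO at 4 h, and 7.996 and 8.57. The 8 samples at 4 and 24 h lay well below every sample at rest and 1 h. The fall at 4 h was 5.10-fold in WT (log2 change -2.35, standard error 0.18, adjusted p = 1.56e-07, limma) and 5.25-fold in the RNA labelled KO (log2 change -2.39, adjusted p = 1.37e-07, limma). At 24 h it was 6.23-fold in WT and 8.53-fold in KO (log2 changes -2.64 and -3.09). The 4 samples at 1 h already lay below the 4 at rest, with log2 changes of -0.30 in WT and -0.33 in KO that did not pass (adjusted p = 0.454 and 0.386).

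Klf4 and Klf13 fell later or less. Klf4, a factor of monocyte differentiation and of alternative macrophage activation, was at 10.26 and 10.17 in unstimulated WT and 10.80 and 10.64 in KO, and stayed between 10.44 and 10.81 in all samples at 1 and 4 h. At 24 h it was at 9.06 and 9.02 in WT and 9.42 and 9.55 in KO, below every earlier sample. The fall at 24 h was 2.26-fold in WT (log2 change -1.17, standard error 0.11, adjusted p = 2.17e-06, limma) and 2.36-fold in KO (log2 change -1.24, adjusted p = 1.38e-06, limma). Klf13, known as an activator of the chemokine gene Ccl5 in T cells, drifted down from between 11.91 and 12.15 in the 4 resting samples to between 11.07 and 11.36 at 24 h. Its log2 change was -0.50 at 4 h and -0.82 at 24 h in WT (adjusted p = 0.0114 and 0.000361, limma), and -0.52 in the RNA labelled KO and -0.93 in KO at 24 h (adjusted p = 0.00850 and 0.000130, limma). The call at 4 h was lost in WT without replicate 2 at 4 h (0.172) or unstimulated replicate 1 (0.0536), and in the RNA labelled KO without unstimulated replicate 2 (0.117).

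Markers of other cell types moved over the same hours. The summed level of the 6 B cell markers was between 15.99 and 16.69 on the log2 scale in the unstimulated samples, between 15.91 and 16.65 at 1 h, between 14.75 and 15.40 at 4 h and between 15.24 and 15.56 at 24 h. For the 7 T and NK cell markers the ranges were 13.71 to 14.39, 13.96 to 14.80, 12.99 to 13.49 and 13.35 to 13.58. Both sums were thus lower at 4 h than at 1 h, as Klf2 and Klf10 were. So was the sum of the macrophage markers, between 18.7625 and 19.48 at 1 h and between 18.46 and 18.7588 at 4 h. The sum of the large peritoneal macrophage markers fell too, from between 16.62 and 17.13 at 1 h to between 15.79 and 16.22 at 4 h. The part of these sums in the members' changes was not tested. The neutrophil sum (5 of 6 markers measured, with S100a9, Retnlg and Mpo never above background) went from between 11.21 and 11.77 at rest and 1 h to between 14.48 and 15.99 at 24 h. S100a8, which stimulated macrophages can also express, carried it, at 10.64 to 11.47 up to 4 h and 14.40 to 15.97 at 24 h. The 6 mast cell markers (Ms4a2 never above background) were between 12.88 and 14.29 up to 4 h and between 10.75 and 11.80 at 24 h, and their part in the falls at 24 h was not tested either. The macrophage sum, of which Lyz2 is a part, went from between 19.02 and 19.29 at rest to between 17.95 and 18.04 at 24 h in WT, and from between 18.78 and 18.79 to between 17.30 and 17.46 in KO. The 7 markers of mesothelial cells and fibroblasts went the other way, from between 9.79 and 10.06 at rest to between 11.12 and 11.59 at 24 h. The 5 markers of large peritoneal macrophages went from between 16.90 and 17.38 at rest to between 15.79 and 16.22 at 4 h and between 14.59 and 16.30 at 24 h. The 6 endothelial markers, of which Cdh5, Tek and Emcn were never above background, were between 12.13 and 12.56 at rest and between 11.60 and 11.83 at 24 h, and the 5 markers of steroid-producing cells between 11.61 and 12.80 at rest and between 10.98 and 12.04 at 24 h. The part of these 5 sums in the members' changes was not tested.

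**Figure D3:**
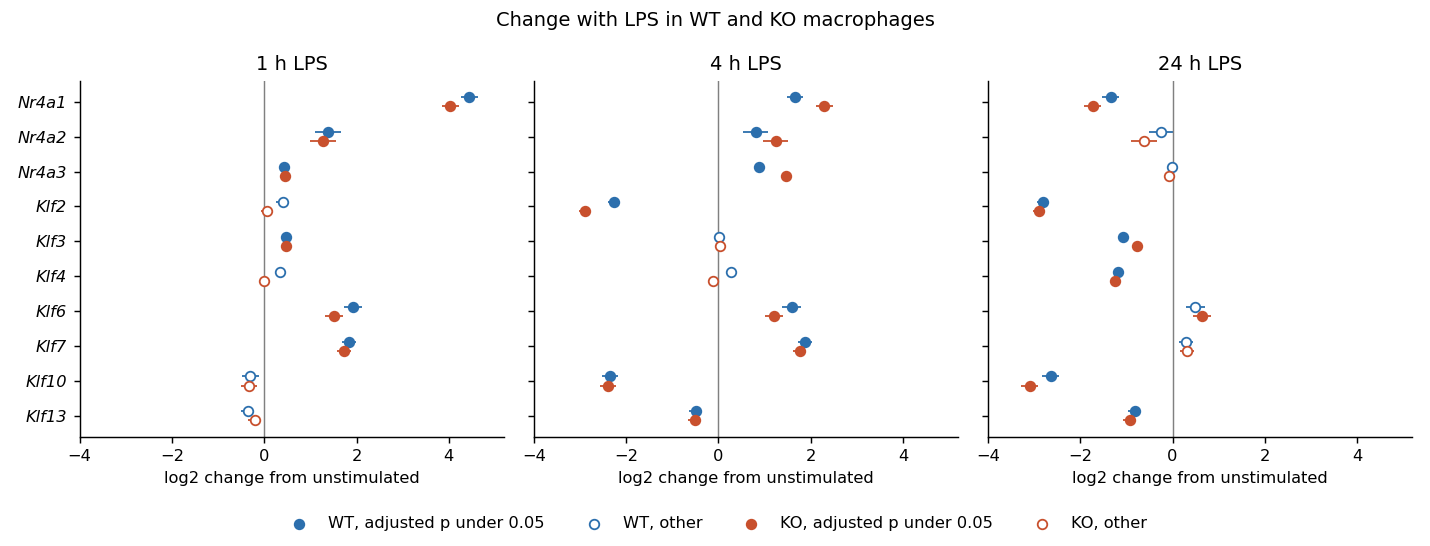
Log2 change from unstimulated (x axis) at 1, 4 and 24 h of LPS for each gene (y axis) in WT (blue) and KO (red, at 4 h the RNA labelled KO), with bars of 1 standard error from the limma fit and filled points where the adjusted p was under 0.05. Nr4a1 moves from 4.44 at 1 h to -1.34 at 24 h in WT, and Klf2 and Klf10 lie below -2 at 4 and 24 h in WT, in the RNA labelled KO at 4 h and in KO at 24 h.

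Between 1 and 4 h, Nr4a1, Klf2, Klf3 and Klf10 fell and Nr4a3 rose in WT, and the same genes moved the same way from KO at 1 h to the RNA labelled KO at 4 h. In WT these calls stood against 14.0% of all genes rising and 15.6% falling over the same step, and with the RNA labelled KO against 15.0% and 16.8%. Nr4a1 fell by 6.87-fold in WT and by 3.32-fold towards the RNA labelled KO, and Klf2 fell by 6.33-fold and 7.73-fold. The smaller falls of Klf3, -0.45 in WT and -0.43 with the RNA labelled KO, missed the threshold without replicate 2 at 4 h in WT (adjusted p = 0.113) and without replicate 1 at 1 h for the latter (0.116). From 4 to 24 h, 8 of the 10 genes fell and none rose in WT, and 9 fell and none rose from the RNA labelled KO at 4 h to KO at 24 h, while 15.1% of all genes rose and 14.6% fell in WT and 15.7% rose and 15.1% fell in KO. The median log2 change of the members over this step was -1.06 in WT and -0.96 in KO, against -0.01 for all genes in each genotype. Nr4a1 fell the most, by 8.01-fold in WT and 16.2-fold from the RNA labelled KO. Klf10 (log2 change -0.29) and Klf13 (-0.32) were the WT exceptions, with adjusted p-values of 0.298 and 0.106, the latter 0.0418 with the replicate block. In KO the exception was Klf2, at -0.01. In WT the step of Klf2 (-0.54, adjusted p = 0.00710) was lost without replicate 1 at 24 h (0.0963) or replicate 2 at 4 h (0.117), and that of Nr4a2 (-1.05, 0.0101) without replicate 2 at 24 h (0.0898) or replicate 1 at 4 h (0.114). In KO those of Klf6 (-0.57, adjusted p = 0.0441) and Klf13 (-0.41, 0.0373) were lost on leaving out most single arrays at 4 or 24 h, and that of Klf10 (-0.70, 0.00851) without replicate 1 at 24 h (0.126) or replicate 2 at 4 h (0.117). With loess normalisation alone Klf2 rose over this step in KO by 0.51 (adjusted p = 0.0287) and Klf13 moved by 0.051 in place of -0.41.

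Over the 16 samples, 9 of the 45 pairs of these genes had a Pearson r above 0.8, and the median r was 0.61. The levels of Klf2 and Klf10 had an r of 0.967, Klf6 and Klf7 0.927, Nr4a1 and Nr4a2 0.910, Klf3 and Klf4 0.884, Nr4a2 and Klf7 0.881, Nr4a1 and Klf3 0.877, and Klf10 and Klf13 0.874. The lowest were Nr4a3 with Klf2 (-0.27) and with Klf10 (-0.25) and Klf6 with Klf13 (-0.17). These values describe 4 time points and share arrays, so no p is given. Among 12742 other named genes well above background in at least 8 channels, the one most like Nr4a1 was Zfp263 (r = 0.991), followed by Bcl10 (0.980) and Gtf2b (0.977). Nr4a2 was most like Fos (0.971), the immediate early subunit of AP-1, Klf2 most like Rarb (0.992), and Klf10 most like Pparg (0.990), a nuclear receptor of lipid metabolism. The nearest gene was Bcl2l11 for Klf6 (0.962) and Dusp8 for Klf7 (0.972), with the histone demethylase gene Kdm6b next for Klf7 (0.970). Klf3 was most like Nfe2l2 (0.971), Klf4 most like Cd86 (0.967) and Klf13 most like Atxn7l3b (0.968). No gene is named for Nr4a3, which was well above background in 5 of 16 channels, 4 of them at 4 h, and its correlations above rest on those samples against signals near background.

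Between KO and WT, none of the 10 genes passed the test at any time without a term for the replicate number. With that number as a block, which takes in pairing and dye orientation alike, Nr4a1, Nr4a2 and Nr4a3 passed at 4 h (adjusted p = 0.0250, 0.0207 and 0.0109, limma). For the mean over time 4 genes passed with the block. The block fit called 0.568% of all genes at 4 h and 6.01% for the mean. Without the block, the share of all genes called was 0% in unstimulated cells, 0% at 1 h, 0.00812% at 4 h, 0.0244% at 24 h and 0.563% for the mean over the 4 time points. At an unadjusted p under 0.05, limma marked 3 members at rest (Klf2, Klf4 and Klf7), 1 at 1 h (Klf7), 4 at 4 h (Nr4a1, Nr4a2, Nr4a3 and Klf7) and 3 at 24 h (Klf2, Klf4 and Klf7), where 5.75%, 5.46%, 4.31% and 3.42% of all genes reached it. For the mean over time it marked 5 (Nr4a2, Nr4a3, Klf2, Klf4 and Klf7), against 3935 of all 36947 genes. The methods' t-test, which compares both genotypes at one time point, marked 2 members at rest (Klf4 and Klf7), 0 at 1 h, 1 at 4 h (Nr4a3) and 1 at 24 h (Klf4) before adjustment and 0 after it. Among all genes it marked 1707 at rest, 1754 at 1 h, 1133 at 4 h and 1516 at 24 h before adjustment and 0 after it. The median log2 KO/WT of the members was 0.19 at rest, with 8 of 10 above 0, and 0.06, 0.06 and 0.09 at 1, 4 and 24 h, while that of all genes was 0.00 throughout.

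**Figure D4:**
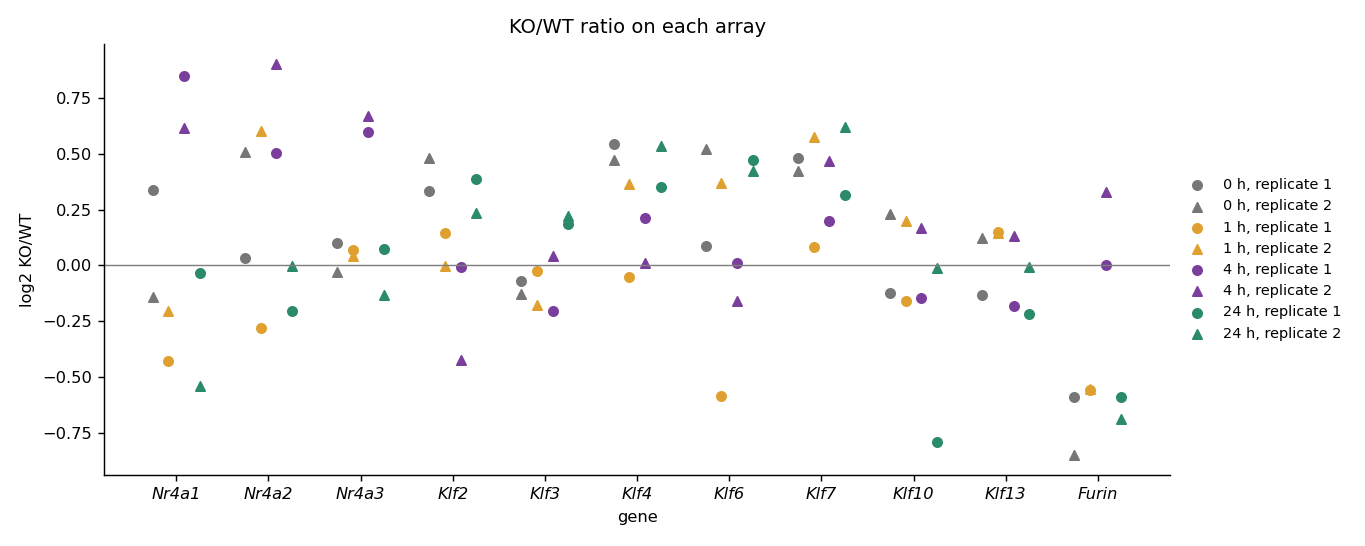
Log2 KO/WT ratio (y axis) of each gene and of Furin (x axis) on each of the 8 arrays, coloured by hours of LPS, with circles for replicate 1 and triangles for replicate 2. All 8 ratios of Klf7 lie above 0, and the 4 h ratios of the 3 Nr4a genes lie between 0.50 and 0.90, while Furin lies below 0 except at 4 h.

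The 3 Nr4a genes had ratios above 0 on both arrays at 4 h. Their log2 KO/WT ratios there were 0.85 and 0.62 for Nr4a1, 0.50 and 0.90 for Nr4a2, and 0.60 and 0.67 for Nr4a3. At the other times the ratios of Nr4a1 ran from -0.54 to 0.34, those of Nr4a2 from -0.28 to 0.60 and those of Nr4a3 from -0.13 to 0.10. Nr4a3 was well above background in 1 of the 12 channels at those times, so its ratios there are set by signals near background and cannot be compared with its 4 h ratio. The mean at 4 h was 0.73 for Nr4a1 (standard error 0.15, adjusted p = 0.430, limma), 0.70 for Nr4a2 (0.20, adjusted p = 0.823, limma) and 0.63 for Nr4a3 (0.09, adjusted p = 0.146, limma). With the replicate number as a block, which is here also a dye term, these 3 passed. These are the arrays on which Furin was not lower in the RNA labelled KO. Crem, a CREB family gene, had 4 h ratios of 0.72 and 0.96, while those of the CREB family genes Creb1 and Atf1 were 0.17 and 0.13, and 0.10 and -0.01. None of these CREB family genes passed the test at 4 h without the block, and their part in the Nr4a ratios was not tested.

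Klf7 was the gene whose ratio lay above 0 on every array. It was 0.48 and 0.42 at rest, 0.08 and 0.57 at 1 h, 0.20 and 0.47 after 4 h and 0.32 and 0.62 at 24 h, above 0 on 8 of 8, and the mean of 0.40 (standard error 0.07) had an adjusted p of 0.0521 (limma). Klf4 was above 0 on 7 of 8 arrays, with 0.54 and 0.47 at rest, -0.05 and 0.36 at 1 h, 0.21 and 0.01 after 4 h and 0.35 and 0.53 at 24 h, and a mean of 0.30 (standard error 0.06, adjusted p = 0.0711, limma). With the replicate block, Klf7 (adjusted p = 0.00149), Klf4 (0.00834), Nr4a2 (0.0207) and Nr4a3 (0.0393) passed for the mean over time, beside the 6.01% of all genes given above. The Nr4a3 mean takes in 3 times at which its probe was mostly not above background, and is no measure of a difference over all times. Without the 4 h arrays none of the 10 genes passed for the mean, and the mean of Nr4a1 changed from 0.06 to -0.17. The ratios of Klf2 were 0.33 and 0.48 at rest, 0.15 and -0.000866 after 1 h, 0.39 and 0.24 after 24 h, but -0.01 and -0.42 with the RNA labelled KO at 4 h. The summed B cell markers, on the log2 scale, differed between KO and WT by 0.16 and 0.32 at rest and by 0.59 and 0.32 after 1 h. With the RNA labelled KO at 4 h the difference was -0.39 and -0.05, and after 24 h it was 0.07 and 0.32. Both this sum and Klf2 were thus above 0 on both arrays at rest and 24 h, and below 0 on both at 4 h. The sum of the T and NK cell markers was above 0 on 6 of 8 arrays (-0.40 to 0.84) and that of the macrophage markers on 1 of 8 (-0.75 to 0.13). That of the mast cell markers was above 0 on 6 of 8, from -0.22 to 1.06, with the highest value at 4 h. The steroid-producing cell sum split by replicate, with all 4 arrays of replicate 1 between -1.23 and -0.61 and all 4 of replicate 2 between 0.20 and 0.48. At 24 h the arrays differed in sign for large peritoneal macrophage markers (-0.72 and 1.71) and neutrophil markers (-0.68 and 1.51). Endothelial markers (-0.13 to 0.26) and those of mesothelial cells and fibroblasts (-0.30 to 0.46) differed least, and the part of all these in the ratios of the 10 genes was not tested. The ratios of Klf3 stayed between -0.21 and 0.22 and those of Klf13 between -0.22 and 0.15. Those of Klf6 ran from -0.59 to 0.52 and those of Klf10 from -0.79 to 0.23, each with the lowest value on 1 array of replicate 1.

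Whether the response to LPS differed between the genotypes was tested as the change of the KO/WT ratio from rest. No member passed at 1, 4 or 24 h, and 0%, 0% and 0% of all genes did. At 4 h limma gave 4 members an unadjusted p under 0.05 (Nr4a1, Nr4a3, Klf2 and Klf4), against 2.90% of all genes. The largest differences in size at 4 h were those of Nr4a1 (0.63, standard error 0.22), Klf2 (-0.62, standard error 0.17), Nr4a2 (0.43, standard error 0.29) and Klf4 (-0.40, standard error 0.17). Nr4a3 is not ranked, since its probe was above background in 0 of 4 resting channels. At 1 and 24 h none of the 10 reached an unadjusted p of 0.05, against 1.40% and 3.33% of all genes, and the differences lay between -0.45 and 0.30.

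The other 19 genes of the Kruppel-like and Sp family, listed by name, moved in both directions. Where a pair of values is given, the first is WT and the second KO, or at 4 h the RNA labelled KO. At 1 h none rose, 1 fell in WT (Klf15) and 3 fell in KO, where 5.15% and 4.45% of all genes fell. At 4 h 5 rose and 6 fell in WT (all genes: 15.5% and 19.2%) and 6 were called higher and 4 lower in the RNA labelled KO (16.2% and 19.7%). Of those 6, Sp5 and Klf5 were not above background in any sample labelled KO at rest or 4 h, so no change can be given for them, and in WT Klf5 was above background in 1 of 2 samples at 4 h and in none at rest. At 24 h 1 rose and 5 fell in WT (13.5% and 16.8%) and 1 rose and 4 fell in KO (12.8% and 15.9%). Their median log2 change was between -0.17 and 0.03 at all times. Klf8, a repressor that binds CtBP, rose at 4 h by 2.46 in WT (adjusted p = 4.95e-10, limma) and by 2.66 in the RNA labelled KO, from a resting mean log2 intensity of 7.50 and 7.47, and was back at 7.23 and 7.53 at 24 h. Sp6 rose by 1.74 in WT and 1.85 in KO at 24 h. Its changes of 0.89 and 0.93 at 4 h did not pass with loess normalisation alone (adjusted p = 0.125 and 0.0893). Klf9, a glucocorticoid-responsive repressor, had log2 changes of -2.15 in WT and -2.31 in KO at 24 h (adjusted p = 5.11e-07 and 2.83e-07, limma). The activators Sp3 and Sp1 changed less, Sp3 by -0.46 and -0.65 at 4 h and Sp1 by -0.57 and -0.66 at 24 h, and leaving out single arrays at rest or at that time ended the call of Sp3 in WT (adjusted p = 0.132 and 0.134) and of Sp1 in both genotypes (0.0773 to 0.157). Klf15 had dropped out of the range above background after 1 h, at least 1.50-fold lower than at rest in WT and at least 1.44-fold lower in KO (adjusted p = 0.0186 and 0.00612, limma). The WT call was lost with loess normalisation alone (0.0816), without unstimulated replicate 1 (0.259) and without either 1 h array (0.0688 and 0.155), and the KO call without replicate 1 at 1 h (0.0775). Klf1, Klf14, Sp5, Sp7 and Sp9 were above background in none of the 16 channels. None of the 19 passed the test between KO and WT. At an unadjusted p under 0.05 limma marked 0 at rest, 1 h and 4 h, 1 at 24 h (Klf8) and 1 for the mean over time (Klf9). Of all genes, 5.75% reached it at rest, 5.46% at 1 h, 4.31% at 4 h and 3.42% at 24 h. For the mean over time, 3935 of all 36947 genes did.

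Of 28 listed genes that act upstream of the 10 genes or bind their products, 27 could be fitted in the separate channels, and 4 rose and 3 fell at 1 h in each genotype, against 3.35% and 5.15% of all genes in WT and 3.08% and 4.45% in KO. At 4 h 7 rose and 9 fell in WT and as many in the RNA labelled KO (all genes: 15.5% and 19.2%, and 16.2% and 19.7%). At 24 h 6 rose and 12 fell in WT (13.5% and 16.8%) and 5 rose and 8 fell in KO (12.8% and 15.9%). Mapk7 and Map2k5, the ERK5 kinase and its activator, stand upstream of Klf2 and Klf4. Mapk7 had log2 changes of -1.01 in WT and -0.97 in KO at 1 h (adjusted p = 4.64e-05 and 8.37e-05, limma), and Map2k5 of -1.47 and -1.39 at 4 h (adjusted p = 6.95e-08 and 1.25e-07, limma). Among class IIa histone deacetylases, which hold Mef2 factors inactive, Hdac5 had log2 changes of -3.78 in WT and -3.65 in the RNA labelled KO at 4 h (adjusted p = 7.49e-11 and 1.07e-10, limma). Its changes were -0.63 and -0.48 at 1 h, where most single arrays decided the KO call, and -2.15 and -1.98 at 24 h. Hdac7 rose by 2.11 and 2.30 at 24 h. Mef2d rose by 0.63 and 0.52 at 1 h, and Mef2a rose by 1.93 and 1.95 at 4 h and by 3.69 and 3.86 at 24 h (adjusted p = 8.43e-06 and 5.89e-06, limma), although its samples spread widely, from 13.90 to 15.21 in the RNA labelled KO at 4 h. Crem rose by 0.92 and 0.98 at 1 h and by 1.88 and 2.47 at 4 h. Rxrb, a gene of the retinoid X receptors that pair with Nr4a1 and Nr4a2, had log2 changes of -1.31 and -1.04 at 24 h. Between KO and WT, Crem was the 1 gene of the 28 that passed the test, for the mean over time (log2 KO/WT 0.40, standard error 0.07, adjusted p = 0.0452, limma, above 0 on 8 of 8 arrays). Of all genes, 0.563% passed for that mean. The call of Crem was lost without any 1 of the 8 arrays (adjusted p = 0.0740 to 0.166) and without both 4 h arrays (0.26, adjusted p = 0.297). At an unadjusted p under 0.05, limma marked 7 of the 28 for the mean (Atf1, Crem, Hdac9, Mef2c, Rcor1, Rxra and Rxrb). Of all 36947 genes, 3935 reached it. Mef2c had a ratio on 1 array only at 1 h. At single times limma marked Atf1 and Rxrb at rest, Crem at 1 h and 4 h, and none at 24 h, leaving Mef2c at 1 h aside.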

How the data were processed

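RNA from KO and WT peritoneal macrophages was amplified, labelled and hybridised on Agilent 2-colour arrays (62976 spots). The authors read the scans with Agilent Feature Extraction 10.7.3, and the deposited scanner files hold raw median spot intensities with local background, not normalised between arrays. The deposited matrix holds the authors' normalised log2 ratios of Cy5 to Cy3, each array with a median near 0 (0.00255 to 0.00970), a Pearson r of 0.976 to 0.995 and slopes of 0.957 to 1.04 against the ratios computed here. It was used as an alternative. Per the labels, the authors used limma, with no version given.

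Here, limma 3.58.1 in R 4.3.3 applied normexp correction (offset 50), loess within arrays and quantile normalisation between arrays. Mean signals had been planned, but median signals were used, since the scanner files analysed here give those. Spots marked as outliers were left out (8 spot values of member probes). Of 55681 gene probes, 27509 had 1 gene symbol through RefSeq identifiers, and the others were kept as unnamed transcripts by accession. A mean log2 intensity of 6 or more was required, which 36947 of 37018 genes and transcripts reached. Log2 KO/WT ratios were fitted with lmFit and eBayes, 1 coefficient per time point and 4 residual degrees of freedom. LPS effects were fitted on the 16 separate channels (statmod 1.5.0, within-spot correlation 0.116 estimated on 5000 genes, 36927 genes). The Benjamini-Hochberg adjustment ran over all genes of a fit. Both fits were tested on simulated data. The replicate numbers recur at each time point, and their deviations in the KO/WT ratio correlated across genes between time points (Pearson r 0.475 to 0.679, 6 pairs). Since dye orientation follows the number, pairing of the samples and dye effects cannot be told apart by this. A fit with the number as a block was an alternative, and for the LPS effects on separate channels this alternative held a dye term as well. Labels do not tell cultures or animals apart beyond calling the replicates biological, so p-values measure the spread between these samples, and all 8 arrays share 1 slide and scan.

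The members and lists were chosen with earlier results of these data known. The list genes named are, at each time, up to 2 with the highest and 2 with the lowest mean change among those called in both genotypes in the same direction, and those called between KO and WT. Beyond these, list genes that were never above background are named. Bounds for probes not above background used intensities scaled by Aquantile. Likeness is Pearson's r over the 16 channels. Promoter sequences are RefSeq's, build GRCm38.p6, with 9 of 10 members matched. No array coordinates were used.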

Additional observations from a re-analysis of the deposited data

Results flagged for a closer look

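In these comparisons between time points the KO/WT ratios of a gene lay above 0 on both arrays at 1 time and below 0 on both at another, and the difference was not tested. Every member and each pair of LPS times was screened by sign alone, and how many of all genes show such a pattern was not counted. On 1 array each, the sign rests on a ratio near 0 for Nr4a1 (-0.034), Nr4a2 (-0.003) and Klf13 (-0.008) at 24 h, Klf2 at 4 h (-0.007) and Klf3 at 1 h (-0.024). For Nr4a1 the mean log2 KO/WT at 4 h minus that at 1 h was 1.05, and that at 24 h minus that at 4 h was -1.02. For Nr4a2 the difference of 24 h minus 4 h was -0.807, and for Klf2 it was 0.525. For Klf3 the ratio at 24 h minus that at 1 h was 0.304, and for Klf13 it was -0.262. All 4 differences that involve the 4 h arrays rest on the time point at which Furin was not lower in the RNA labelled KO (ratios 0.00 and 0.33), and the part of those arrays in the differences was not tested.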

How the results depend on the processing

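Over 20 alternative settings, 3028 of 3142 values of single genes stayed on their side of the threshold with no called value changing sign, 60 lost and 31 gained a call, 21 uncalled values moved and 2 reversed. Of values called on neither side, 77 changed sign. The methods' t-test is 1 of the 20 settings but adds none of these values, and some settings gave only part of the comparisons. With the replicate block, which changes the error only, 3 genes were called between KO and WT at 4 h and 4 for the mean over time, against 0 in each without it, and it changed no other call than those given beside the results and Klf13 in KO from 1 to 4 h (adjusted p = 0.0461). Leaving out 1 array at a time, 3 to 7 genes were called in WT and 3 to 6 in KO at 1 h, 6 to 8 and 7 to 8 at 4 h, and 6 to 7 and 6 to 8 at 24 h. From 1 to 4 h the counts were 4 to 6 in WT and 4 to 5 in KO, from 4 to 24 h 7 to 8 in WT and 6 to 9 in KO, and 0 for every KO/WT comparison. Leaving out both 4 h arrays, a choice made after seeing Furin, gave 0 calls between KO and WT, 7 in WT at 1 h and 8 in KO at 24 h. With loess normalisation alone, 2 changes in KO from 4 to 24 h reversed, Klf2 to 0.51 and Klf13 to 0.051, and Klf4 in the RNA labelled KO at 4 h was called at -0.51 (adjusted p = 0.00688). The same setting moved the calls over all genes towards lower at 4 h, to 3301 higher and 8584 lower in WT and 3334 and 8623 in the RNA labelled KO (against 5726 and 7103, and 6000 and 7276), and shifted the median of all genes from 1 to 4 h to -0.16. From 1 to 4 h in WT it gave 2817 higher and 7583 lower (against 5153 and 5773) and in KO 2925 and 7865 (against 5540 and 6187), and from 4 to 24 h 8267 higher and 2097 lower in WT and 8320 and 2190 in KO (against 5584 and 5388, and 5782 and 5560). At 24 h it turned the balance of calls, to 5195 higher and 4594 lower in WT and 4982 and 4218 in KO (against 4998 and 6221, and 4711 and 5860). The cause was not tested. Signal over background limits Nr4a3 most.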
